A study of Homo sapiens with 12 samples.

Results

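The heat shock chaperone genes are 10 genes chosen by symbol, HSPA1A, HSPA1B, HSPA8, HSPH1, DNAJB1, HSP90AA1, HSPD1, HSPE1, BAG3 and HSPB1, whose rows were matched through Ensembl gene identifiers. All 10 were among the 19901 genes of the count table, and all 10 were among the 13093 genes that reached at least 10 counts in at least 6 libraries. The RNA-Seq experiment held 12 libraries in 4 groups of 3. Every library came from HCT116, a human colorectal carcinoma cell line, in which KAP1 (encoded by TRIM28) carried a degron tag, a peptide through which the dTAG ligand sends a protein to the proteasome. The labels name a single clone, D5, so all groups share that clone and its tag. All cells were kept in serum-free medium for 48 h and received either DMSO, the vehicle, or dTAG, which depletes KAP1, for the final 8 h. They were then collected without serum (DMSO-S0, dTAG-S0) or after 30 min of serum (DMSO-S30, dTAG-S30). No library came from untagged cells given dTAG, so effects of the ligand itself and of KAP1 loss cannot be told apart here. The question asked of these genes was whether serum, dTAG or their combination moved them.

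Heat shock proteins hold unfolded proteins, help them fold and keep them from clumping. The HSP70 proteins bind exposed hydrophobic stretches, J-domain proteins such as DNAJB1 load clients onto HSP70 and trigger its ATPase, and HSPH1 and BAG3 release its nucleotide so that the client can leave. HSP90AA1 matures kinases and receptors, HSPD1 and HSPE1 form the mitochondrial folding chamber and its lid, and HSPB1 is a small heat shock protein that holds clients without ATP. Many of these genes are kept at a high level in cancer cells, and the transcription factor HSF1 raises most of them further when proteins unfold, by binding heat shock elements in their promoters.

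The promoter stretches are shown because the heat shock element is the sequence these genes are known for, and because its form differed among the members. RefSeq (GRCh38.p14) gave 14 promoter windows for the 10 genes, each from 250 bases before to 50 bases after a start site, and all 14 were identical to hg38 at their coordinates. The strict element searched was 3 units that alternate between GAA and TTC with 2 free bases between units, on both strands. It lay in a window of HSPA8, HSP90AA1 and HSPD1, that is in 3 of the 10 members, against 0.608% of all 27305 genes with a window. The 3 stretches are written 5′ to 3′ on the strand of the gene, with the element in capitals.
HSPA8: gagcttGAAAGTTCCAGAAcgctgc
HSP90AA1: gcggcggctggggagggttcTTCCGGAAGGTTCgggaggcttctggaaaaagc
HSPD1: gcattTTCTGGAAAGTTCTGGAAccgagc
The HSPA8 stretch lies at chr11:123062348-123062372 on the minus strand, with its element starting at position -230 from the start site. The HSP90AA1 stretch lies at chr14:102087100-102087152 on the minus strand, with the element at -88. The HSPD1 stretch lies at chr2:197500062-197500090 on the minus strand, with the element at -245, and there the units ran on to 4. The HSPA8 and HSPD1 stretches also fall in first exons of other annotated transcripts of the same genes.

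A looser form of 2 units (GAANNTTC or TTCNNGAA, contained in the strict form) was found in 7 of the 10 members and in 16.2% of all genes. HSPA1A, HSPA1B, DNAJB1 and HSPB1 held this form without the strict one.
HSPA1A: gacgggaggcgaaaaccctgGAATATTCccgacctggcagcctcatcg
HSPA1B: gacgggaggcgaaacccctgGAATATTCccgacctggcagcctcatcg
DNAJB1: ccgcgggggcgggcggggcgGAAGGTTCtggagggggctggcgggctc
HSPB1: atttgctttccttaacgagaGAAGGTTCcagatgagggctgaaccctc
These lie at chr6:31815417-31815464 (HSPA1A, plus strand, element at -106), chr6:31827613-31827660 (HSPA1B, plus strand, -105), chr19:14518447-14518494 (DNAJB1, minus strand, -77) and chr7:76302471-76302518 (HSPB1, plus strand, -182). HSPH1, HSPE1 and BAG3 held neither form, which says only that these letters are not in their windows. For HSPE1 the limit of the window matters. Its window runs from 197500129 to 197500428 on chromosome 2, on the plus strand. The HSPD1 stretch shown above, at 197500062 to 197500090, lies just before that window. It also lies within the annotated span of HSPE1, 197499994 to 197503457. A TATA box (TATAAA) was found for HSPA1A and HSPA1B, 2 of the 10 members, against 14% of all genes. The CArG box, the element of the serum response factor SRF, was found in 0 of the 10 members and in 1.6% of all genes. These matches describe sequence and are not binding sites.

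Of the 10 genes, 3 were seen through a small part of their sequence. HSPA1A and HSPA1B, the stress-inducible HSP70 genes, stand near each other on chromosome 6, at 31815464 to 31817946 and 31827735 to 31830255 in hg38. Only 25% of the 50-base exonic windows of HSPA1A and 28.4% of those of HSPA1B occur once in hg38, and the longest run the genes share is 1715 bases. HSPA1A received 9 to 35 counts per library and HSPA1B 703 to 1104, and how reads with several places were counted is not given in the sources used here, so the split between the pair is uncertain. HSPE1 (chromosome 2, 197499994 to 197503457) had 15% of its exonic bases outside other genes of its strand, since a read-through gene, HSPE1-MOB4, covers most of it. HSPE1 received 36 to 67 counts per library and HSPE1-MOB4 62 to 99. Across the table, all 436 genes that lie wholly within another gene of the same strand had 0 counts in every library, whereas 271 of the 608 genes within a gene of the other strand only passed the filter. The other 7 members had 100% of their exonic bases outside genes of the same strand and 85.3% to 100% of their exonic windows unique. Genes of the other strand also overlap some members: DNAJB1, which shares its place with TECR, had 40.9% of its exonic bases outside genes of either strand, and HSPE1, which HSPD1 also covers, had 0%. The sources used here do not state whether the counting used strand. Without strand, reads of such pairs could not be told apart, and a gene wholly within another would be at 0, like the 436. HSPE1, which lies wholly within HSPD1 on the other strand, received 36 to 67 counts.

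**Figure D1:**
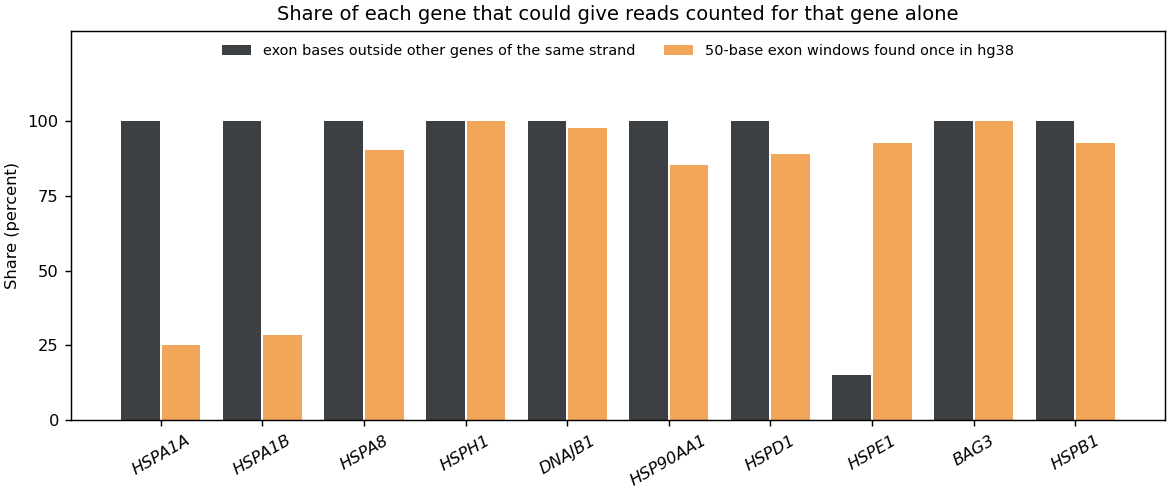
Share, in percent, of each gene's exonic bases outside other genes of the same strand (dark bars) and of its 50-base exonic windows that occur once in hg38 (orange bars). HSPE1 stands low in the first at 15%, HSPA1A and HSPA1B in the second at 25% and 28.4%.

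The libraries held 18658747 to 23861254 gene counts, and the ERCC spike-ins, RNAs of known amount added to each sample, took 7.97% to 9.37% of the counts. Levels are given as CPM, that is a counts-per-million value after upper-quartile scaling of the libraries. FOS, an immediate early gene, was at 4.63 to 6.41 CPM in the 6 libraries without serum and at 372 to 536 with serum, as the labels have it. TRIM28 RNA was 85.5 to 120 CPM and was not called between dTAG and DMSO (log2 fold change -0.06 without serum and -0.05 with serum). The tag acts on the protein, so this RNA does not check the depletion. Of the colorectal epithelial markers all 6 were detected in every library, with EPCAM at 252 to 284 CPM. Of 7 markers of blood, endothelial and connective tissue cells, COL1A1 reached 11.8 to 85.5 CPM and the other 6 stayed at or under 1.54, with DCN at 0 in 10 of the 12 libraries. The summed level of these 7 was 13.3 to 17 without serum and 67.6 to 86.5 with serum. Most of it was COL1A1, with a mean of 14.7 CPM in DMSO-S0 and 81.2 in DMSO-S30. COL1A1 was itself called higher with serum (log2 fold change 2.48 in each treatment). The part of this sum in the serum results below was not tested.

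Without serum, in DMSO, the members spanned a wide range of levels. On CPM per kilobase of exon, HSP90AA1 stood at 751 ± 75 and HSPA8 at 442 ± 49.6 (mean and SD, 3 libraries), HSPD1 at 95.5 ± 4.23, and HSPB1 (31.1 ± 0.648), HSPH1 (30.2 ± 0.472), DNAJB1 (20.8 ± 0.737), BAG3 (19.4 ± 0.206) and HSPA1B (14.4 ± 0.48) between 14.4 and 31.1. HSPB1 and HSPH1, neighbours in this order, overlapped in their libraries. HSPE1 (1.15 ± 0.221) and HSPA1A (0.362 ± 0.172) came last, at levels that hold only the countable part of each gene. The place of HSPA1B in this order has the same limit, with 28.4% of its exonic windows unique. Reads were counted over the whole gene, introns included, so these values are not exonic levels alone. The order also depends on the length used. Per kilobase of the whole gene, as means of all 12 libraries, HSPA8 stood at 417 CPM and HSP90AA1 at 65.7. HSPB1 (38.7) then stood above HSPD1 (26.7), and BAG3 (2.15) below HSPA1B (16.3).

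**Figure D2:**
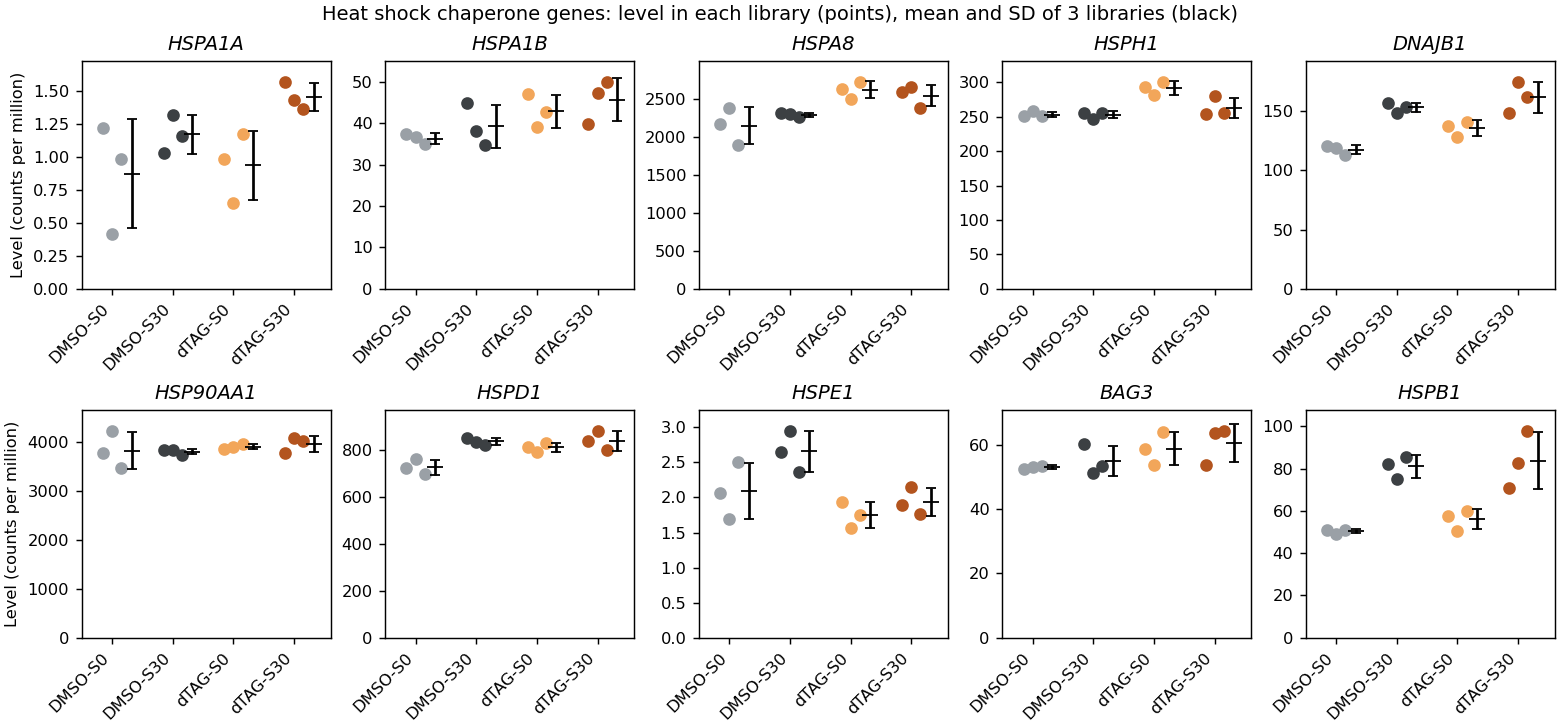
Level of each of the 10 genes, in CPM, in the 3 libraries of each group (points), with the mean and SD in black and every axis starting at 0. HSPB1 and DNAJB1 sit higher in the serum groups within each treatment, and HSPA8 sits higher in both dTAG groups than in the DMSO group at the same serum level.

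In DMSO-treated cells, 30 min of serum raised 3 of the 10 genes, HSPB1, DNAJB1 and HSPD1, and lowered none of them past the test. Of all genes tested, 27.3% were called in this comparison, so 3 of 10 is close to the background. Counting called genes by direction depends on the scaling: 34.4% of all called genes were higher with upper-quartile scaling and 61.3% with TMM scaling, which moved the median log2 fold change of all genes from -0.07 to 0.00.

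HSPB1, the small heat shock protein, measured 50.8, 49.2 and 51.2 CPM in DMSO-S0, and with serum (DMSO-S30) 82.3, 75.2 and 85.6. Every serum library lay above every library without serum. The level was 65.2% higher (log2 fold change 0.72, 95% interval 0.55 to 0.90, adjusted p = 2.08e-07, edgeR quasi-likelihood test with Benjamini-Hochberg adjustment over all genes, as for all adjusted p below). DNAJB1, the J-domain partner of HSP70, measured 121, 119 and 113 in DMSO-S0 and 157, 149 and 154 in DMSO-S30. The groups were again fully apart. The rise was 32% (log2 0.40, 0.27 to 0.53, adjusted p = 1.87e-05). Both calls held under each of the 10 alternatives and with each of the 12 libraries left out. HSPD1, the wall of the mitochondrial chaperonin, measured 724, 762 and 698 in DMSO-S0 and 853, 837 and 823 in DMSO-S30. Its groups did not overlap, and the rise was smaller, 14.7% (log2 0.20, 0.07 to 0.32, adjusted p = 0.0171). Leaving out replicate 3 of DMSO-S0 ended this call (adjusted p = 0.132), as did leaving out replicate 2 of DMSO-S30 (adjusted p = 0.0584).

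The other 7 members were not called. HSP90AA1 and HSPH1 had log2 fold changes within 0.01 of 0, with 95% intervals of -0.14 to 0.15 and -0.12 to 0.12. HSPA8, HSPA1B and BAG3 had log2 values of 0.10, 0.13 and 0.06. HSPA1A, at 0.55, and HSPE1, at 0.34, had the largest uncalled values, on 9 to 30 and 37 to 67 counts in these 6 libraries, with 95% intervals of -0.15 to 1.26 and -0.10 to 0.79. Single libraries set both values: without replicate 2 of DMSO-S0 HSPA1A fell to 0.16 and HSPE1 to 0.18, and without replicate 3 of DMSO-S0 they stood at 0.83 and 0.56. Without replicate 2 of DMSO-S30 HSPE1 stood at 0.22. In bulk RNA, more cells that express a gene and more of its RNA per cell cannot be told apart.

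In dTAG-treated cells, serum raised HSPB1 and DNAJB1 and lowered HSPH1, 3 of the 10 genes, against 25.6% of all genes called. HSPB1 measured 57.4, 50.7 and 59.9 CPM in dTAG-S0 and 70.8, 82.9 and 97.9 in dTAG-S30. The groups did not overlap, and the serum libraries were spread more widely than those of DMSO-S30 (SD 13.5 against 5.30). The rise was 47.5% (log2 0.56, 0.39 to 0.73, adjusted p = 7.15e-06). DNAJB1 measured 138, 128 and 141 in dTAG-S0 and 149, 175 and 162 in dTAG-S30, again with no overlap. It rose by 18.5% (log2 0.25, 0.12 to 0.37, adjusted p = 0.00306). Here too both calls held under all 10 alternatives and all 12 libraries left out.

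HSPH1, an HSP110 protein that exchanges the nucleotide of HSP70, measured 293, 282 and 301 in dTAG-S0 and 254, 280 and 255 in dTAG-S30. Each serum library was lower than each library without serum, with replicate 2 of dTAG-S30 just under the lowest of them. The log2 fold change was -0.15 (-0.26 to -0.04, adjusted p = 0.0486), next to a median of -0.06 over all genes. This is a call at the threshold: it was kept under 2 of the 10 alternatives and lost under the other 8, with log2 values from -0.15 to -0.09 and adjusted p from 0.0371 to 0.327. Of the 12 libraries left out in turn, it was kept without replicate 2 of DMSO-S0, replicate 1 of DMSO-S30, replicate 2 of dTAG-S0 or replicate 2 of dTAG-S30, and lost without each of the others (adjusted p up to 0.219). HSPD1 had a log2 value of 0.05 here (-0.07 to 0.17, adjusted p = 0.579). HSPA1A, at 0.987, 0.649 and 1.17 in dTAG-S0 and 1.57, 1.43 and 1.36 in dTAG-S30, was fully apart but not called (log2 0.59, -0.03 to 1.21, adjusted p = 0.155).

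In cells without serum, dTAG went with a higher level of HSPA8, the constitutive HSP70, the only member called. Of all genes, 1.47% were called (193 genes, and 69 to 306 with single libraries left out). HSPA8 measured 2170, 2370 and 1890 CPM in DMSO-S0 and 2630, 2500 and 2720 in dTAG-S0. The lowest dTAG library stood above the highest DMSO library, and the DMSO group was the more spread. The level was 22.2% higher (log2 0.29, 0.14 to 0.44, adjusted p = 0.0409). The call depended on single libraries: with 8 of the 12 libraries left out in turn it was lost, with adjusted p up to 0.364 and log2 0.17 without DMSO-S0 replicate 3, the lowest DMSO library. The other 7 libraries whose omission ended it were DMSO-S0 replicate 1, DMSO-S30 replicates 2 and 3, dTAG-S0 replicates 1 and 3, and dTAG-S30 replicates 2 and 3. A fit on the 6 libraries of this comparison alone also ended it (adjusted p = 0.0742).

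Another 2 cochaperones of HSP70 came near the threshold. HSPH1 measured 251, 258 and 251 in DMSO-S0 and 293, 282 and 301 in dTAG-S0, 2 narrow groups with a gap between them. Its log2 fold change was 0.21 (0.09 to 0.32, adjusted p = 0.0641). DNAJB1, at 121, 119 and 113 against 138, 128 and 141, had a log2 fold change of 0.22 (0.09 to 0.34, adjusted p = 0.0706). With DESeq2 both were called (adjusted p = 0.00627 and 0.0282).

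Of the remaining members, HSPA1B measured 37.3, 36.6 and 34.9 in DMSO-S0 and 47, 39.1 and 42.6 in dTAG-S0 (log2 0.25, adjusted p = 0.219). HSPD1 had a log2 value of 0.16 (adjusted p = 0.237), BAG3 0.16 (0.422) and HSPB1 0.17 (0.408). For 6 of the 10 members, HSPA8, HSPH1, DNAJB1, HSPA1B, HSPD1 and BAG3, all 3 dTAG-S0 libraries lay above all 3 DMSO-S0 libraries, as did 8.5% of all genes tested. The median log2 fold change of the 10 was 0.18, next to -0.01 for all genes. The 10 values are not independent, since the genes share libraries. HSP90AA1 had a value of 0.04 (-0.11 to 0.18) and HSPE1, the only one below 0, of -0.26 (-0.72 to 0.20).

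**Figure D3:**
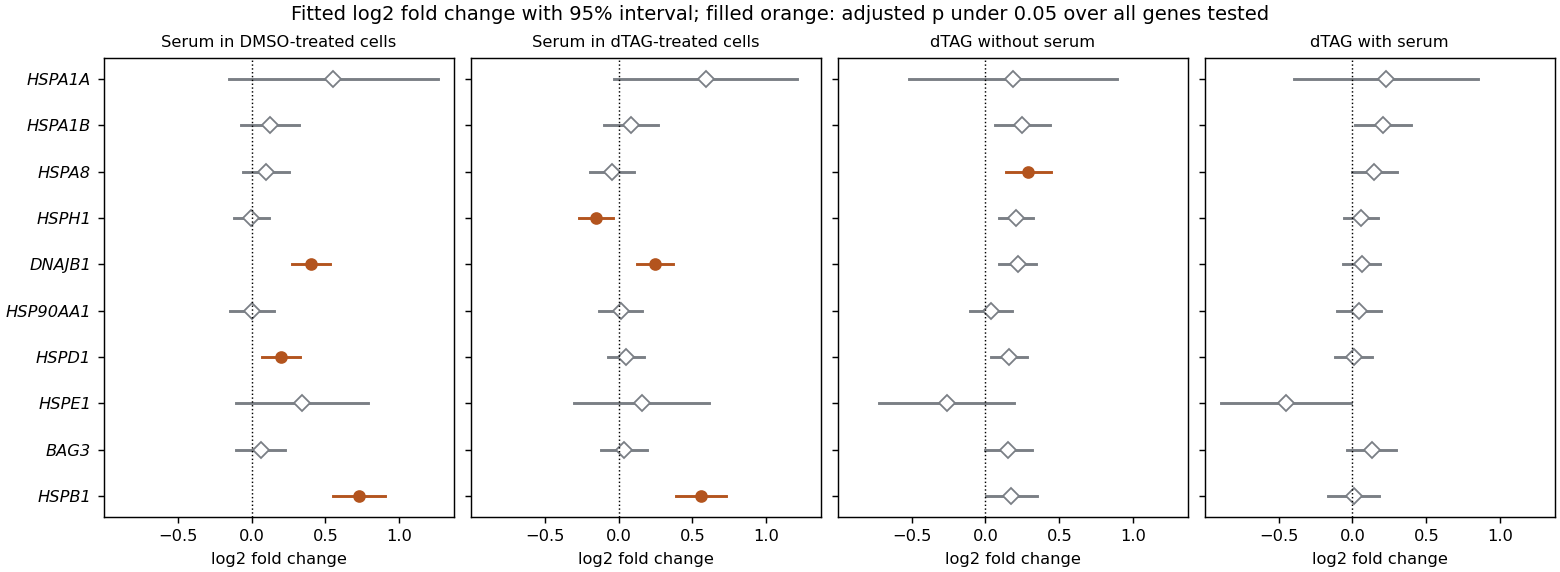
Fitted log2 fold change (horizontal axis) of each gene with its 95% interval in the 4 comparisons; filled orange circles passed an adjusted p of 0.05 over all genes tested, open diamonds did not. Serum moved HSPB1 and DNAJB1 in both treatments, and without serum HSPA8 was the only gene called between dTAG and DMSO; the wide intervals of HSPA1A and HSPE1 go with their low counts.

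With serum, 0 of the 10 genes were called between dTAG and DMSO by edgeR, and 0 by DESeq2, against 1.25% of all genes with edgeR (164 genes, and 98 to 267 with single libraries left out). Before adjustment, HSPA1B and HSPE1 alone were under 0.05 among the members. HSPA8 measured 2310, 2290 and 2260 CPM in DMSO-S30 and 2580, 2650 and 2380 in dTAG-S30, fully apart as without serum, with a log2 fold change of 0.15 (-0.01 to 0.30, adjusted p = 0.503). HSPA1A was also fully apart, at 1.03, 1.32 and 1.16 in DMSO-S30 and 1.57, 1.43 and 1.36 in dTAG-S30, with a value of 0.23 (-0.40 to 0.85, adjusted p = 0.854). These were 2 of the 10 members, and 7.62% of all genes had every dTAG library above every DMSO library. HSPA1B measured 44.8, 38.1 and 34.7 against 39.9, 47.2 and 50, which overlap, with a value of 0.21 (0.02 to 0.40, adjusted p = 0.403). HSPE1 was lower in every dTAG-S30 library, at 1.89, 2.15 and 1.77 against 2.65, 2.95 and 2.37, with a log2 value of -0.45 (-0.89 to -0.01, adjusted p = 0.459) on 39 to 67 counts. HSPH1 and DNAJB1 each had a value of 0.06, with intervals of -0.06 to 0.18 and -0.06 to 0.19, and their groups overlapped. HSPB1 and HSPD1 each had 0.01.

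Whether dTAG changed the serum response of a gene was tested with the interaction term, and 0 of the 10 genes were called by edgeR, 0 by DESeq2, and 0 had an unadjusted p under 0.05, against 0.0458% of all genes called. For HSPB1 the difference between the serum responses was -0.16 on the log2 scale (-0.41 to 0.09), for DNAJB1 -0.16 (-0.34 to 0.03), for HSPH1 -0.15 (-0.32 to 0.02), for HSPD1 -0.15 (-0.33 to 0.03) and for HSPA8 -0.14 (-0.36 to 0.08). The call of HSPD1 with serum in DMSO only, and that of HSPA8 with dTAG without serum only, are therefore not shown to differ between the conditions. The intervals still allow a serum response of DNAJB1 that was smaller with dTAG by up to 0.34 on the log2 scale.

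A contrast that averages the dTAG effect over both serum levels was added after the data had been seen. It called HSPA8, HSPA1B and HSPH1 higher with dTAG, 3 of the 10 genes, against 4.85% of all genes (635 genes, and 376 to 914 with single libraries left out). HSPA8 was 16.3% higher (log2 0.22, 0.11 to 0.32, adjusted p = 0.00993), and this call held under all 9 alternatives that could be run and with each of the 12 libraries left out. HSPA1B was 17.1% higher (log2 0.23, 0.10 to 0.36, adjusted p = 0.0332), a call lost with 9 of the 12 libraries left out (adjusted p up to 0.154). HSPH1 was 9.55% higher (log2 0.13, 0.05 to 0.21, adjusted p = 0.0497), lost under 5 of the 9 alternatives and likewise with 9 of 12 libraries left out (adjusted p up to 0.15). For both genes the call was kept only with replicate 1 of DMSO-S30, replicate 2 of dTAG-S0 or replicate 1 of dTAG-S30 as the library left out. DNAJB1 stood just outside the threshold (log2 0.14, adjusted p = 0.0512). HSP90AA1 had a value of 0.04 (-0.06 to 0.14).

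Among the 8 members with more than 100 counts in every library, most pairs correlated positively from library to library beyond their groups. After each group's mean was subtracted, 26 of their 28 pairs had a Pearson correlation above 0 over the 12 libraries, with a median of 0.50. HSPA8 and HSPD1 were the closest pair (0.90), followed by HSPH1 and DNAJB1 (0.84) and by BAG3 with HSPB1 (0.78) and with DNAJB1 (0.77). The lowest pair was HSPA8 and HSPB1, at -0.22. The points share libraries and one scaling, so these values are a description. Pairs of other genes were not measured in the same way, so the correlations are not shown to be particular to the members. The median deviation of the 8 genes from their group means ran from -0.09 in dTAG-S30 replicate 1 to 0.07 in dTAG-S30 replicate 2 on the log2 scale. A mean profile of all 10 members, HSPA1A and HSPE1 included, was also set beside all other genes. The 5 that followed it most closely over the 12 libraries were DDX21 (Pearson r = 0.95), NCL, TUBA1B, VCP and LAP3 (each 0.94). Around the group means they were EIF4B (0.98), RNF41 (0.97), TRUB2, PSMD2 and ICMT (each 0.96).

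Outside the members, 77 of 87 listed genes of the chaperone system were tested. With serum in DMSO, 16 were called higher and 5 lower (27.3% of the 77, against 27.3% of all genes), and in dTAG 13 and 8 (27.3%, against 25.6%). Without serum, 5 were called higher with dTAG and 0 lower (6.49%, against 1.47% of all genes). These 5 were HSPA5, HYOU1, DNAJB9, DNAJB11 and HMOX1, so the share does not describe the listed genes in general. With serum, 2 were called higher with dTAG and 1 lower (3.9%, against 1.25%). The lower one was RGS2, a regulator of G protein signalling on the list of other heat-induced genes (log2 -0.43, adjusted p = 0.000589).

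Of the regulators, HSF1, the factor that binds heat shock elements, had a higher RNA level with serum in both treatments (log2 0.33, adjusted p = 0.000501, and 0.32, adjusted p = 0.000417). HSF2 had a lower one (-0.25 and -0.27, adjusted p = 0.0203 and 0.00959). Neither was called with dTAG, with log2 values for HSF1 within 0.01 of 0 at both serum levels. Of the 6 genes of this list, 0 were called with dTAG at either serum level by edgeR or DESeq2, and 0 had an unadjusted p under 0.05.

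Of the 10 other HSP70 and HSP110 genes tested, HSPA5 and HYOU1 were called with dTAG at each serum level. HSPA5, the HSP70 of the endoplasmic reticulum, measured 327 ± 4.19 CPM in DMSO-S0, 403 ± 21.7 in dTAG-S0, 385 ± 23 in DMSO-S30 and 460 ± 24.6 in dTAG-S30 (mean and SD, 3 libraries). It was higher with dTAG without serum (log2 0.30, adjusted p = 0.00724) and with serum (0.26, adjusted p = 0.0348). HYOU1, its HSP110 partner, was higher in both (0.35, adjusted p = 0.00549, and 0.37, adjusted p = 0.00404). Of the 12 other J-domain genes, 2 were called with dTAG without serum, DNAJB9 (0.37, adjusted p = 0.0409) and DNAJB11 (0.32, adjusted p = 0.0228), and with serum their values were 0.05 (adjusted p = 0.903) and -0.02 (adjusted p = 0.966). HMOX1, the heme oxygenase that many stresses raise, was higher without serum (0.75, adjusted p = 0.00396) and had a value of 0.46 with serum (adjusted p = 0.147).

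HSP90 and its cochaperones gave 0 calls of 15 with dTAG without serum by edgeR or DESeq2 and 5 with an unadjusted p under 0.05, with all 15 values at or above 0 and a median of 0.13, against -0.01 for all genes. HSP90AB1, the constitutive partner of HSP90AA1, had 0.13 (-0.01 to 0.28, adjusted p = 0.474). TRiC and prefoldin, which fold actin and tubulin, gave 0 calls of 14 with either tool, 1 with an unadjusted p under 0.05 and a median of 0.05. The 9 BAG family and exchange genes gave 0 calls with either tool, 1 with an unadjusted p under 0.05 and a median of 0.06.

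With serum in DMSO, DNAJB2, HSPB8 and RGS2 had log2 fold changes above the 0.72 of HSPB1, the largest of the members. DNAJB2, a J-domain protein with a neuronal role, rose from 14.3 ± 1.05 to 37.9 ± 1.87 CPM in DMSO (log2 1.38, adjusted p = 2.74e-13) and by 1.14 in dTAG (adjusted p = 7.75e-12). HSPB8, the small heat shock protein that works with BAG3, rose from 6.15 ± 0.907 to 12.6 ± 1.37 in DMSO (1.06, adjusted p = 5.42e-06) and by 0.81 in dTAG (adjusted p = 0.000121). It was the only other small heat shock protein gene to pass the filter, of 9 listed and 8 found in the count table. RGS2 rose by 1.02 in DMSO (adjusted p = 1.18e-11) and by 0.78 in dTAG (adjusted p = 1.67e-09). DNAJB11 rose by 0.59 and 0.26 (adjusted p = 9.05e-07 and 0.00935) and DNAJB9 by 0.55 and 0.24 (adjusted p = 7.2e-05 and 0.0492). BAG1 rose by 0.40 in DMSO (adjusted p = 6.43e-05), beside 0.06 for BAG3, which was not called.

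**Figure D4:**
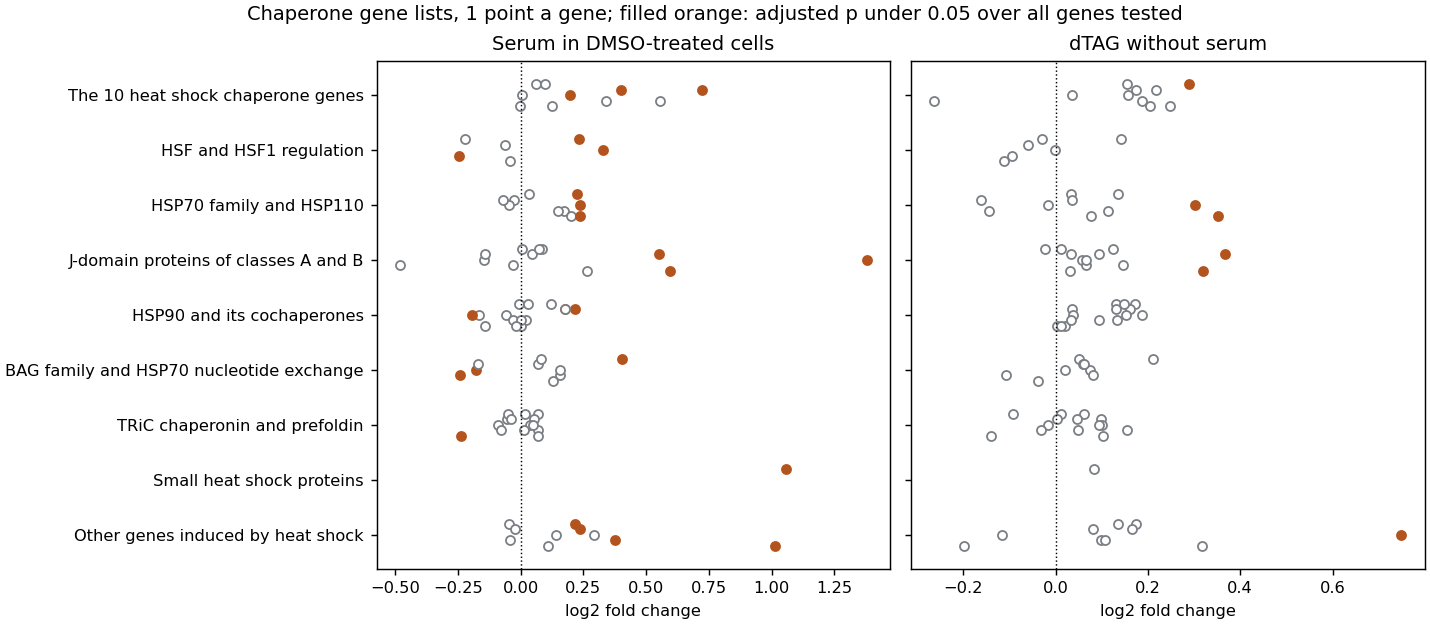
Log2 fold change (horizontal axis) of each tested gene of the 10 members and 8 other chaperone lists, with serum in DMSO (left) and with dTAG without serum (right); filled orange points passed an adjusted p of 0.05 over all genes tested. On the right, 9 of the 10 members and all 15 genes of the HSP90 list lie at or above 0, while of both only HSPA8 was called.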

How the data were processed

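Total RNA of 12 libraries was depleted of ribosomal RNA and sequenced with ERCC spike-ins. The authors trimmed reads (Trim Galore 0.6.4), aligned them to hg38 with STAR and deposited raw counts per gene, made with featureCounts (Subread 1.6.3) over whole genes of the protein-coding annotation; replicates were not pooled. The methods call the replicates biological. The 10 genes and all other lists were chosen with earlier results of these data known. The test was the quasi-likelihood F-test of edgeR 4.0.16 under R 4.3.3, run on the counts of all 12 libraries, with upper-quartile scaling and 1 factor of unwanted variation from 69 ERCC transcripts, a number of factors the sources used here do not give. Genes needed 10 counts in 6 libraries, and p-values were adjusted over all 13093 genes tested (called: under 0.05). Levels are CPM on the scaled libraries. Named genes were the members, the checks of labels, and, per other list and comparison, at most the 2 genes with the largest called change in each direction, plus HSF1, HSF2, HSPA5 and HSP90AB1. Alternatives were TMM scaling, ERCC library sizes with no factor, 0 or 2 factors with upper-quartile scaling, other count filters, the likelihood ratio test, DESeq2 1.42.0, a replicate block, the compared groups alone, and each library left out. No 2 replicates agreed within sampling noise (chi-square per degree of freedom 3.02 to 9.8). Exons were those of GENCODE.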

Additional observations from a re-analysis of the deposited data

How the results depend on the processing

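The serum calls of HSPB1 and DNAJB1 held under every alternative and every library left out. With dTAG without serum, 1 member was called; the count became 2 without the factor (HSPA8, HSPH1), 2 without the count filter (HSPA8, DNAJB1), 3 with the likelihood ratio test and 3 with DESeq2 (HSPA8, HSPH1, DNAJB1), 0 with the compared groups alone, and 0 to 3 with single libraries left out. With the replicate block it was 0 (HSPA8, adjusted p = 0.0501), and with serum in dTAG the block left 2 of 3. Whether the replicate numbers pair the samples is not shown. After removal of group means, 1 of 18 pairs with the same number correlated over 0.1, as did 6 of 36 pairs with other numbers. The median correlations were 0.0327 and -0.000203. Of the 12 libraries, 5 correlated best with one of their own number. With 3 replicates per group, these values cannot decide whether the samples are paired. For the average over serum levels, leaving out single libraries gave 1 to 5 calls. The cause of these shifts was not tested. The 12 libraries limit what can be called: in comparisons of 2 groups, 95% intervals spanned about 0.1 to 0.2 on either side for members other than HSPA1A and HSPE1, and in the interaction they were wider, up to -0.315 to 0.235 for HSPA1B.

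Members that were not called changed sign around 0. With serum in DMSO, HSPH1 became 0.07 with TMM scaling, 0.06 with ERCC library sizes and no factor, 0.06 with DESeq2, 0.01 with 2 factors, 0.02 without the count filter and 0.00 with at least 50 counts, and HSP90AA1 -0.01 both without the factor and with the compared groups alone. HSPA8 with serum in dTAG became 0.02 with TMM scaling and 0.01 with DESeq2, and HSPB1 with dTAG and serum -0.02 with the compared groups alone. In the interaction, HSP90AA1 became -0.01 with ERCC library sizes and no factor; with 2 factors HSPA1A became -0.10, HSPA1B 0.04 and BAG3 0.04; and with the replicate block HSPA1A became -0.04. With single libraries left out, the ranges that crossed 0 were, with serum in DMSO, HSPA8 -0.03 to 0.20, HSPH1 -0.01 to 0.02 and HSP90AA1 -0.09 to 0.11; with serum in dTAG, HSP90AA1 -0.00 to 0.06 and BAG3 -0.03 to 0.15; with dTAG without serum, HSPA1A -0.20 to 0.46 and HSP90AA1 -0.05 to 0.13; with dTAG and serum, HSPD1 -0.03 to 0.04 and HSPB1 -0.08 to 0.16; and in the interaction, HSPA1A -0.28 to 0.47, HSPA1B -0.12 to 0.13, HSPA8 -0.25 to 0.00, HSP90AA1 -0.10 to 0.11, BAG3 -0.10 to 0.12 and HSPB1 -0.26 to 0.01.

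Over all genes, ERCC library sizes with no factor, 2 changes at once, gave 1766 and 1646 calls for serum in DMSO and dTAG (3576 and 3346 as reported), 76 and 66 for dTAG without and with serum (193 and 164), 3 for the interaction (6) and 258 for the average (635). Without the filter the dTAG comparisons gave 314 and 286 calls and the interaction 24, and with the likelihood ratio test 310, 278 and 15; DESeq2 gave 14 for the interaction. Single libraries left out moved these counts by over 1.5 times as follows. For serum in dTAG they gave 2135 (dTAG-S30 replicate 3). For dTAG without serum they gave 122 and 104 (DMSO-S0 replicates 2 and 3), 104 and 69 (dTAG-S0 replicates 1 and 3) and 306 (dTAG-S0 replicate 2). For dTAG with serum they gave 98 without either DMSO-S30 replicate 2 or 3 and 267 without DMSO-S0 replicate 1. For the average they gave 376 (DMSO-S30 replicate 2), 402 and 382 (dTAG-S0 replicates 1 and 3) and 379 (dTAG-S30 replicate 3).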
